A study of Mus musculus with 18 samples.

Results

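PAt and Arrested cells are CD4+ T cells named by the colour of a Timer reporter of Foxp3, the gene of the lineage factor of regulatory T cells (Treg). By that colour, Foxp3 transcription had been sustained and was falling or had stopped. These cells were compared with naive CD4+ T cells (Tnaive) of the same draining lymph nodes. The members were chosen by their sample labels, not by any measured value: 3 PAt and 3 Arrested libraries against 3 Tnaive libraries, which makes 9 of the 18 libraries of the study. The other 9 hold effector cells and 2 populations with persistent Foxp3 transcription. All groups came from female mice of the strain C57/BL6 Foxp3Timer Foxp3-IRES-GFP, whose abdominal skin had been painted with 3% oxazolone 5 days before the inguinal and axillary nodes were taken. In the study's methods the sensitised mice were 5 to 10 weeks old. Tnaive cells were sorted as CD44loGFP-Foxp3Timer-, and they therefore came from mice with the same reporters and the same treatment. The PAt and Arrested libraries are labelled CD4+GFP+, as mature Foxp3 expressers and decaying Foxp3 expressers, respectively. Each library was made from a pool of 3 mice per the study, and every mouse had been sensitised, so no library shows these cells at rest.

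The Timer protein starts as a blue form with a short life and matures into a stable red form, so its colour records how long ago its promoter was active. PAt cells had low blue and high red fluorescence, and Arrested cells had lost the blue form and kept part of the red. Treg restrain other T cells. They do so by taking up interleukin 2 (IL-2) through the high-affinity receptor, by occupying CD80 and CD86 through CTLA-4, and by releasing or activating inhibitory mediators such as TGF-beta. Naive T cells have not met antigen. They recirculate through lymph nodes with CCR7, live on IL-7, and are kept quiescent by factors such as TCF-1, LEF1, KLF2 and FOXO1.

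The unit throughout is the log2 normalised read count of the deposited table, 1 value per gene and library. A step of 1 is a doubling, and the values have the look of a regularised log, a transform that draws the changes of genes with few reads towards 0. Of 15402 genes, the 13190 with a mean of at least 3 over the 18 libraries were tested with limma, with Benjamini-Hochberg adjustment over all of them. A gene was called higher or lower at an adjusted p under 0.05 together with an absolute log2 fold change over 1. Every fold change below is PAt and Arrested minus Tnaive unless another contrast is named. Per-library values are given in the order of replicates 1, 2 and 3, and errors are SD (n = 3) or the standard error (SE) of the fit.

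PAt and Arrested cells differed from Tnaive cells mainly by genes that were higher. The test called 1042 genes, 7.9% of those tested, of which 874 (6.63%) were higher and 168 (1.27%) were lower. The median log2 fold change was 1.64 among genes called higher and -1.45 among genes called lower, against -0.01 over all tested genes. Changes of more than 4 on the log2 scale were seen for 31 genes called higher and 4 called lower. All 6 PAt and Arrested libraries lay above all 3 Tnaive libraries for 3018 genes (22.9% of those tested) and below them for 2509 genes (19%). By the adjusted p alone, 50.7% of tested genes passed. Among the 1042 called genes, 1040 (7.88% of those tested) had no overlap between the groups and 2 had libraries that overlapped. The replicates lay close to each other: the mean Euclidean distance over the tested genes was 20.2 within Tnaive, 23.2 within PAt and 27.3 within Arrested, against 82.0 between PAt and Tnaive and 73.6 between Arrested and Tnaive. The split of higher against lower calls moved with the scaling, from 874 and 168 for the values as deposited to 675 and 234 after quantile normalisation.

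**Figure D1:**
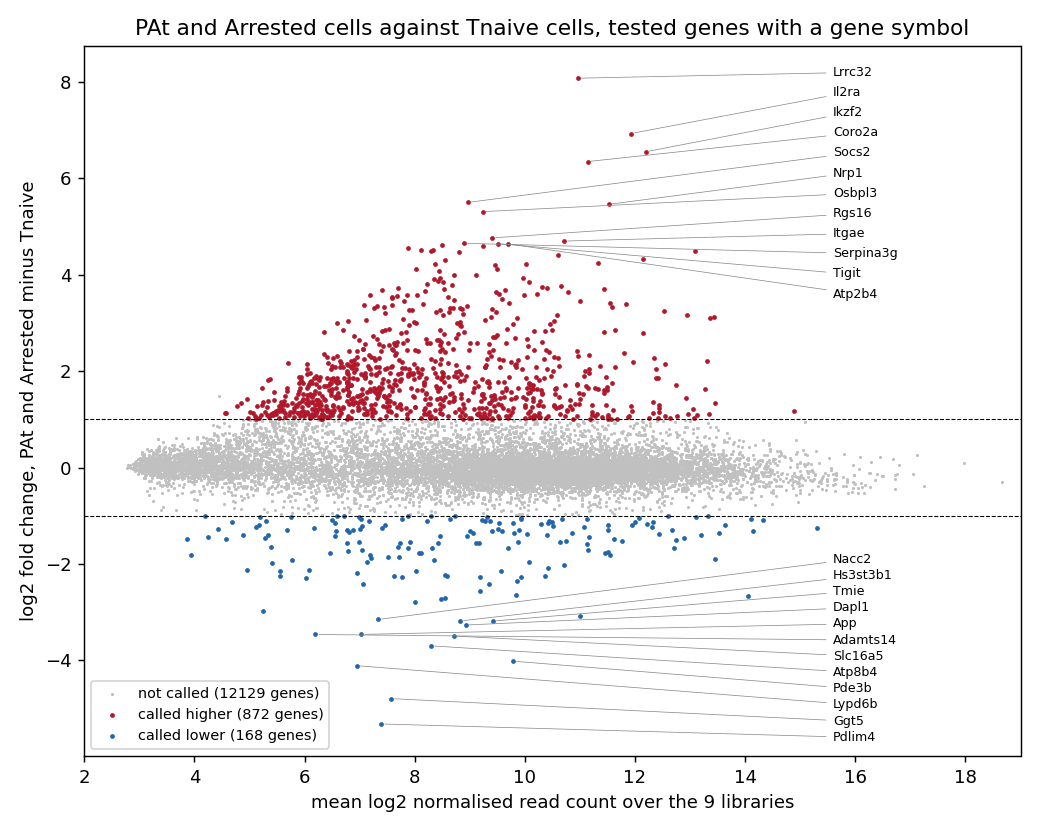
Log2 fold change of PAt and Arrested libraries (n = 6) against Tnaive libraries (n = 3) on the vertical axis, by the mean log2 normalised read count over these 9 libraries on the horizontal axis. Each point is a tested gene with a gene symbol (rows whose symbol had turned into a date are left out, among them 2 called higher), dashed lines mark a log2 fold change of 1 either way, and the 12 highest and 12 lowest genes are named. Lrrc32, at 8.08, lies furthest up and Pdlim4, at -5.32, furthest down.

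The plot of fold change by mean level shows this imbalance, with Lrrc32, Il2ra and Ikzf2 furthest above the axis. The 12 highest genes were Lrrc32, Il2ra, Ikzf2, Coro2a, Socs2, Nrp1, Osbpl3, Rgs16, Itgae, Serpina3g, Tigit and Atp2b4, from 8.08 to 4.64. The 12 lowest were Pdlim4, Ggt5, Lypd6b, Pde3b, Atp8b4, Slc16a5, Adamts14, App, Dapl1, Tmie, Hs3st3b1 and Nacc2, from -5.32 to -3.15. Among these 24 genes, Serpina3g belongs to a family of near-identical serpin genes, so its reads can be shared with other copies and its value is uncertain.

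The sort itself was checked first. Foxp3 (chromosome X of GRCm38, 7573644 to 7595245) stood at 11.27, 11.37 and 11.38 in Tnaive, at 14.57, 14.36 and 14.65 in PAt, and at 14.45, 14.41 and 14.40 in Arrested libraries. All 6 reporter-positive libraries were thus above the naive libraries, by 3.13, while the level in cells sorted as GFP-negative was far from the floor of the table. Exons of Foxp3 overlap those of Flicr on the same strand over 853 bp and those of Ccdc22 on the opposite strand over 590 bp. Whether reads were assigned by strand is not given in the sources used here, so the part of such reads was not tested. Cd44, on which the naive gate was set, was at 9.61 ± 0.13 in Tnaive, 12.01 ± 0.04 in PAt and 11.86 ± 0.13 in Arrested cells. Foxp3 and Cd44 follow from the gates and are not results. Of 9 tested markers of CD4 T cells, such as Cd3e and Lck, none was called, against 6.63% higher and 1.27% lower over all tested genes. Cd4 itself differed by -0.47.

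Other cell types left different traces in the 2 sides of the comparison. Of 10 B-cell markers, 9 were called higher in PAt and Arrested cells, against 6.63% higher and 1.27% lower over all tested genes. Among the 9 were Cd79b (2.43), Cd22 (2.43) and Ms4a1 (1.83), and Ebf1 (0.84) was not called. Their summed level, in log2, was 10.2 to 10.7 in Tnaive, 12.4 to 12.7 in PAt and 12.1 to 12.3 in Arrested libraries, so the groups did not overlap. It was higher still, 12.9 to 13.5, in the activated CD44hi effector T cells of the study (Teff, CD44hiGFP-Foxp3Timer-). Of the markers of conventional dendritic cells, 2 of 9 were higher, H2-Aa (1.71) and Cd74 (2.18), which B cells carry too, whereas Clec9a stayed between 2.78 and 2.90 in the group means. Of 10 markers of plasmacytoid dendritic cells, Ly6d (1.47) and Runx2 (3.00) were higher and Lair1 (-1.81) was lower. Siglech, which defines these cells, was at 3.85 in Tnaive, 4.03 in PAt and 3.97 in Arrested cells, near the floor, but at 10.6 in Teff. Of 9 NK-cell markers none was higher and 3 were lower (Klrd1, Eomes and Prf1), with a summed level of 10.6 to 10.8 in Tnaive and 9.03 to 9.33 in PAt and Arrested libraries. The median fold change of the list was 0.13, Klrb1c differed by 0.96 without a call, and Prf1 and Eomes had the highest levels in Tnaive and so set most of the sum. Ncr1, which defines NK cells, was at 2.76 in Tnaive, 2.77 in PAt and 2.84 in Arrested cells. Macrophage markers counted 1 higher and 2 lower of 8. In bulk RNA, fewer cells of a type and less RNA per cell cannot be told apart. The part of B-cell transcripts in the results below was not tested. They are named again beside some of the genes that B cells express, so a gene without such a remark is not free of this limit. Itgam, Runx2 and Eomes are members of the marker lists and are also counted in lists of T-cell genes below.

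**Figure D2:**
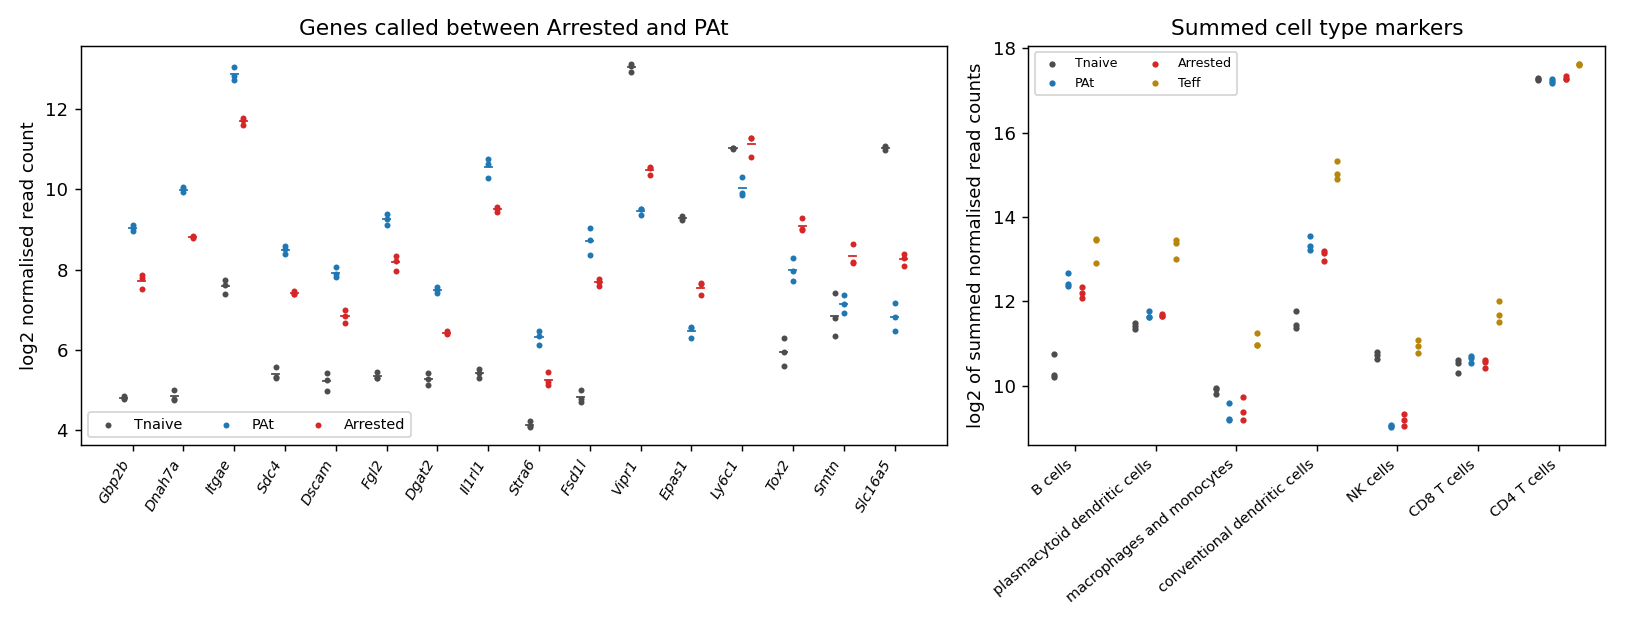
Left, log2 normalised read counts of the genes called between Arrested and PAt cells, 1 point per library (n = 3 per group) for Tnaive, PAt and Arrested, with bars at the group means. Right, log2 of the summed normalised read counts of each cell-type marker list in each library of these groups and of Teff: the B-cell sums run from 10.2 to 10.7 in Tnaive and from 12.1 to 12.7 in PAt and Arrested libraries.

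The right-hand plot of summed markers sets these lists side by side. The B-cell and dendritic-cell sums of all PAt and Arrested libraries lay above Tnaive. The conventional dendritic-cell sums were set mostly by Cd74 and H2-Aa. The plasmacytoid sums rose mainly with Runx2, at 6.02 in Tnaive, 9.17 in PAt and 8.86 in Arrested cells. The NK-cell sums, set mostly by Prf1 and Eomes, lay below Tnaive.

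The genes of Treg identity were higher as a group. All 18 tested members of the list were called higher, against 6.63% of all tested genes, with fold changes from 1.87 to 8.08 and a median of 3.54 (all tested genes, -0.01). The list includes Foxp3, on which the cells were sorted. Like the other lists it was chosen with earlier results of these data known, so the count is a description. Il2ra and Socs2 are members too and are counted again in the cytokine receptor and SOCS lists below. Lrrc32 encodes GARP, which holds latent TGF-beta on the cell surface, and lies on chromosome 7 from 98489283 to 98502181. Its values were 5.70, 5.53 and 5.48 in Tnaive, 14.06, 13.83 and 13.83 in PAt, and 13.64, 13.47 and 13.07 in Arrested libraries. The naive libraries were near the floor and all PAt and Arrested libraries were above 13, a fold change of 8.08 (adjusted p = 3.5e-23). Il2ra, on chromosome 2 from 11642807 to 11693193, encodes CD25, the alpha chain of the high-affinity IL-2 receptor. It was at 7.24, 7.18 and 7.50 in Tnaive, at 14.52, 14.67 and 14.57 in PAt, and at 13.76, 13.88 and 14.03 in Arrested libraries. The groups did not overlap, and the fold change was 6.93 (SE 0.0839, adjusted p = 3.4e-23). Ikzf2 encodes Helios, a zinc finger factor of Treg, and rose from 7.68, 7.76 and 8.05 in Tnaive to 14.64, 14.79 and 14.55 in PAt and to 14.12, 14.05 and 14.14 in Arrested libraries (6.55, SE 0.0673, adjusted p = 2.5e-24). Its relative Ikzf4, which encodes Eos, a partner of Foxp3, was higher by 3.45. Surface molecules followed: Nrp1 (neuropilin-1) was higher by 5.46, Ctla4 by 4.33, Tnfrsf4 (OX40) by 3.71, Izumo1r (folate receptor 4) by 2.20 and Tnfrsf18 (GITR) by 2.10. The smallest change of the list was that of Lrig1, a transmembrane inhibitor of growth factor receptors, at 1.87.

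**Figure D3:**
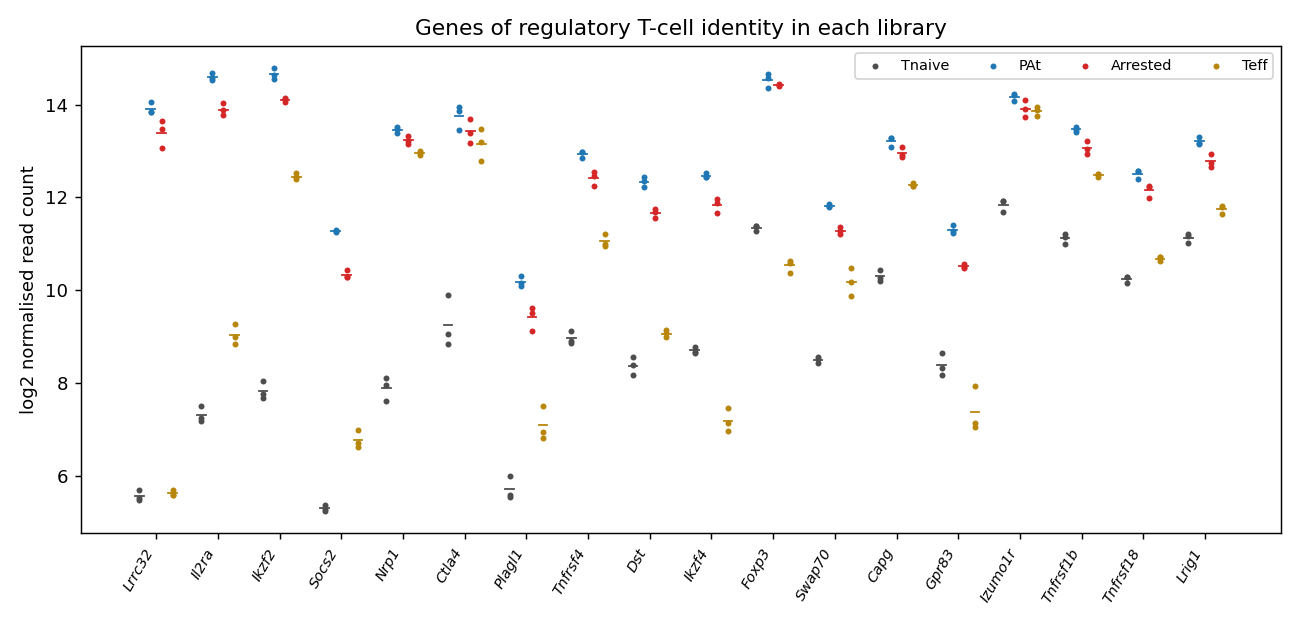
Log2 normalised read counts of the 18 Treg identity genes in each library of Tnaive, PAt, Arrested and Teff cells (n = 3 per group), with bars at the group means. All PAt and Arrested points lie above the Tnaive points of the same gene, and Teff points lie at the Tnaive level for Lrrc32 (5.62 against 5.57) but near the PAt level for Nrp1 (12.95 against 13.46).

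The plot of identity genes also shows how the CD44hi effector cells stood. The contrast of PAt and Arrested cells with Teff uses the same 6 Treg libraries, and the values are set side by side. Of the 18 identity genes, 13 were called higher than in Teff, against 2.84% of all tested genes, and none was lower. Lrrc32 in Teff was at 5.58, 5.70 and 5.58, as low as in Tnaive, and differed from the Treg libraries by 8.03 (adjusted p = 1.2e-22). Il2ra in Teff was at 9.04 ± 0.22, which left a difference of 5.20 (adjusted p = 7.2e-21). Teff libraries had the highest sums of the study for B-cell markers (12.9 to 13.5), conventional dendritic cells (14.9 to 15.3) and plasmacytoid dendritic cells (13.0 to 13.4), with Itgax at 9.73 and Flt3 at 8.61 against group means of at most 5.25 and 4.16 in PAt and Arrested cells. Their part in the contrasts with Teff was not tested. By contrast, Nrp1 (0.39), Ctla4 (0.43), Izumo1r (0.18), Tnfrsf1b (0.79) and Capg (0.82) were not called between Treg and Teff.

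Receptors that set the response to cytokines changed selectively. Of 24 cytokine receptor genes, 8 were called higher and 2 lower, against 6.63% and 1.27% of all tested genes, with a median of 0.12. Beside Il2ra, the shared IL-2 and IL-15 receptor chain Il2rb was higher, from 10.10 ± 0.16 in Tnaive to 14.83 ± 0.06 in PAt and 14.33 ± 0.13 in Arrested cells (4.49, SE 0.0568, adjusted p = 4.2e-23), whereas the common gamma chain Il2rg differed by -0.12 and was not called. Il1rl1, which encodes ST2, the IL-33 receptor, was at 5.43, 5.29 and 5.52 in Tnaive and between 9.44 and 10.76 in the Treg libraries, and did not overlap (4.62, SE 0.105). Il9r, Il12rb1 and Il10ra were higher by 3.91, 2.75 and 2.00. The IL-7 receptor alpha chain Il7r was at 13.69, 13.81 and 13.73 in Tnaive, at 12.34, 12.58 and 12.46 in PAt and at 11.81, 11.91 and 12.30 in Arrested libraries. All 6 Treg libraries were below the naive ones (-1.51, SE 0.0958, adjusted p = 1.8e-11). Among TGF-beta receptors, Tgfbr1 was higher (1.29), the co-receptor Tgfbr3 was lower (-2.25), and Tgfbr2 was not called (-0.79).

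Downstream of these receptors, 3 of 17 tested STAT, JAK and SOCS genes were called higher and none lower. Over all tested genes the shares were 6.63% and 1.27%. The 3 were members of the SOCS family of cytokine signalling inhibitors. Socs2 was at 5.38, 5.28 and 5.24 in Tnaive, at 11.27, 11.29 and 11.24 in PAt and at 10.27, 10.43 and 10.29 in Arrested libraries. PAt and Arrested libraries were both far above Tnaive, and also apart from each other (5.50, SE 0.0808, adjusted p = 3.3e-22). Cish, a STAT5-induced suppressor, was higher by 3.42 (SE 0.0815, adjusted p = 1.1e-18), and Socs5 by 1.07. In Teff, Socs2 was at 6.77 ± 0.20 and Cish at 9.02 ± 0.22, and both were called higher in Treg than in Teff, by 4.03 and 3.67. The 7 STAT genes were not called, Stat5a with 0.54 and Stat5b with 0.24, and Il2, which encodes the ligand, was near the floor in both groups (3.45 in Tnaive, 3.38 in PAt and 3.41 in Arrested cells).

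Mediators through which Treg suppress were higher in most cases. Of 17 tested genes of this kind, 11 were called higher and 2 lower, against 6.63% and 1.27% of all tested genes, with a median of 1.70. Entpd1 (CD39), which degrades extracellular ATP, was higher by 4.30 and Nt5e (CD73), which makes adenosine from AMP, by 3.40. Itgb8, the integrin chain that activates latent TGF-beta, was at 4.96, 4.94 and 4.99 in Tnaive and between 8.18 and 9.05 in the Treg libraries, without overlap (3.68, SE 0.138), whereas Tgfb1 itself differed by 0.64 and was not called. Penk (proenkephalin, 4.52) and Il1r2, the decoy receptor of IL-1 (4.50), had the largest changes of the list. Il10 rose from 4.92 to 6.86 in PAt and 6.39 in Arrested cells (1.70), and Gzmb (granzyme B) by 2.42. The 2 lower genes were Prf1 (perforin, -1.93), which is also a member of the NK-cell list above, and Pde3b, which degrades cyclic AMP and lies on chromosome 7 from 114415281 to 114539251. Pde3b was at 12.43, 12.48 and 12.47 in Tnaive, at 8.17, 8.04 and 7.75 in PAt and at 8.83, 8.70 and 9.17 in Arrested libraries. All 6 lay at least 3 units below the naive libraries (-4.02, SE 0.101, adjusted p = 2.6e-18). Teff, at 12.23 ± 0.04, lay close to the naive level, and the difference of the Treg libraries from Teff was -3.78 (adjusted p = 2.3e-17).

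Inhibitory and costimulatory receptors were higher too. Of 18 tested, 11 were called higher and none lower, against 6.63% and 1.27% of all tested genes, with a median of 1.24. Tigit, an inhibitory receptor for CD155, rose from 6.49, 5.93 and 6.83 in Tnaive to 11.12, 11.24 and 11.23 in PAt and to 11.18, 10.74 and 10.87 in Arrested libraries (4.65, SE 0.122, adjusted p = 5.2e-18). Pdcd1 (PD-1) was higher by 3.06, Tnfrsf9 (4-1BB) by 2.97, Lag3 by 2.59 and Icos by 2.04. Cd83 was higher by 3.93, and it is a gene that activated B cells express. Cd28, Cd27, Cd226, Btla and Cd96 were not called, at -0.08, 0.32, -0.22, 0.14 and 0.28. Set beside Teff, the order of these receptors differed. In this contrast 8 of the 18 were called lower in Treg and 1 higher, against 4.04% and 2.84% of all tested genes. Pdcd1 was at -1.14 and Lag3 at -2.22. The dendritic-cell and B-cell sums given above moved with this contrast, and their part was not tested.

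**Figure D4:**
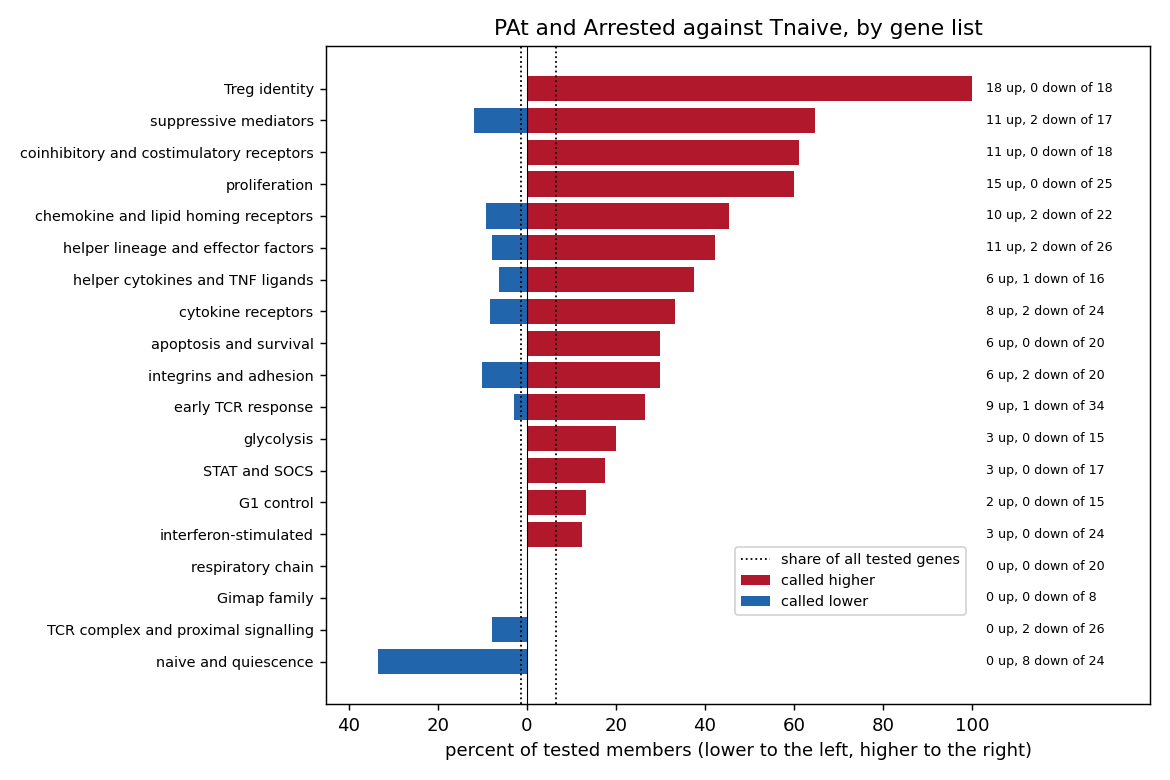
Share of the tested members of each gene list called higher (red, to the right) or lower (blue, to the left) in PAt and Arrested cells against Tnaive cells, in percent. Dotted lines mark the shares over all tested genes, 6.63% higher and 1.27% lower, and the numbers of members stand at the right.

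The bars of the plot by gene list run from Treg identity, with all 18 members higher, to the naive and quiescence list, the only one of the 19 lists where more than 2 members were lower.

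Genes of the naive state were lower in part. Of 24 tested members of the naive and quiescence list, 8 were called lower, none was higher and 16 were not called, with a median of -0.37, against 1.27% lower and a median of -0.01 over all tested genes. Dapl1, which encodes a small protein, lies on chromosome 2 from 59484653 to 59505020. It was at 11.25, 10.98 and 11.08 in Tnaive, at 7.22, 7.65 and 7.48 in PAt and at 8.02, 8.25 and 8.41 in Arrested libraries. The groups were far apart (-3.27, SE 0.116, adjusted p = 9.5e-16). Igfbp4, a binding protein of insulin-like growth factors, fell from 14.72 ± 0.06 to 12.57 ± 0.13 in PAt and 13.07 ± 0.08 in Arrested cells. The HMG box factors Lef1 and Tcf7 were lower by -1.39 and -1.25, and the chromatin organiser Satb1 by -1.33. Actn1 was lower by -1.18. Ccr7, the chemokine receptor that brings T cells into lymph nodes, was at 13.93, 13.76 and 13.71 in Tnaive and between 12.60 and 12.94 in the Treg libraries, so it did not overlap (-1.03, SE 0.0664, adjusted p = 2.2e-11). Without Tnaive replicate 1 its change was -0.97 and it was no longer called.

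Klf2, a quiescence factor that drives S1pr1, overlapped between the groups (-0.28, SE 0.113, adjusted p = 0.0432). S1pr1, the receptor for leaving lymph nodes (-0.32), Foxo1 (-0.28), Foxp1 (-0.32) and Bach2 (-0.60) had all 6 Treg libraries below the naive ones. Each stayed under the fold threshold. Not every 1 of the 16 members without a call lay wholly below Tnaive, as Klf2 shows. The 12 libraries of the plot of naive genes show these small steps beside the large one of Dapl1. In Teff, Tcf7 was at 16.04 ± 0.02, within 0.2 of Tnaive, and it was called lower in Treg than in Teff (-1.15, adjusted p = 6.6e-15). Igfbp4 stood the other way, at 10.26 ± 0.14 in Teff and higher in Treg by 2.56.

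**Figure D5:**
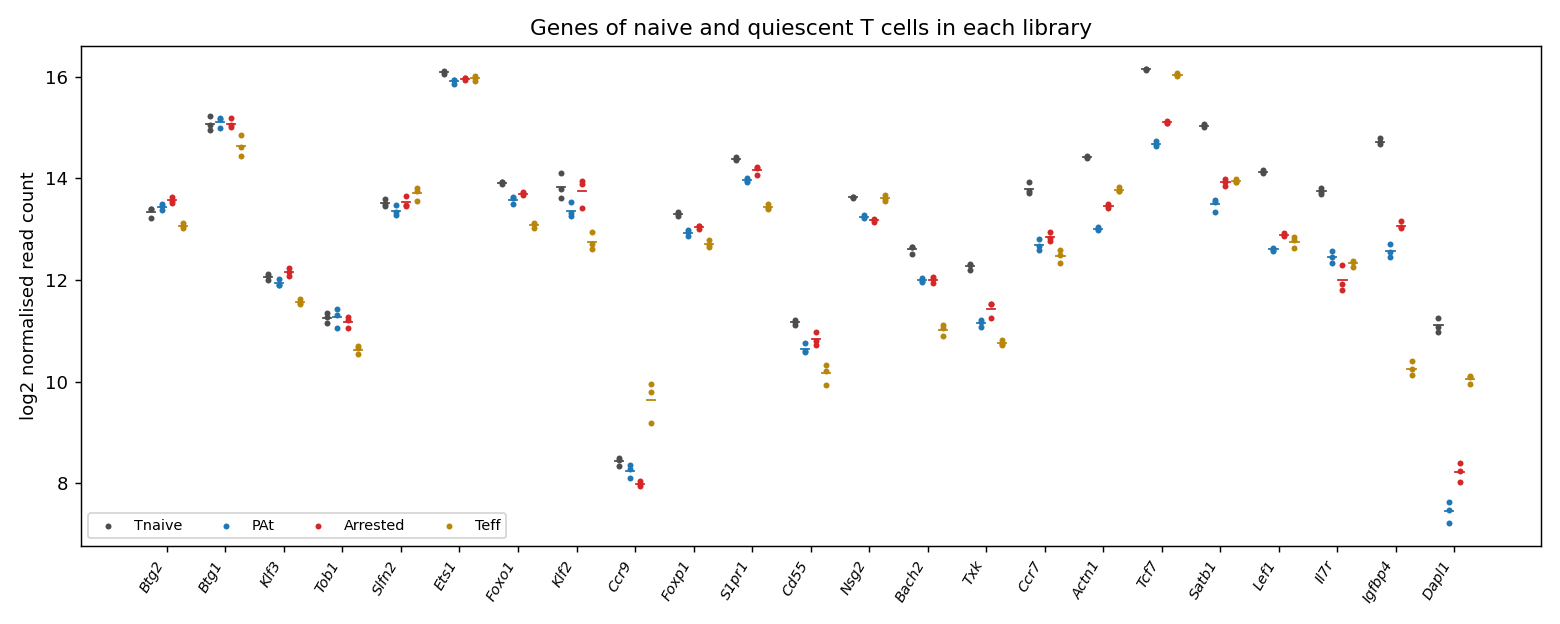
Log2 normalised read counts of the 24 genes of the naive and quiescence list in each library of Tnaive, PAt, Arrested and Teff cells (n = 3 per group), with bars at the group means and 1 gene left out. The Tnaive points of Dapl1 lie at 10.98 to 11.25 and its PAt and Arrested points at 7.22 to 8.41.

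Of 26 tested transcription factors of helper lineages and effector cells, 11 were called higher and 2 lower, against 6.63% and 1.27% of all tested genes, with a median of 0.84. Maf, a factor of IL-10 and IL-4 expression, was higher by 3.73 and Bhlhe40 by 4.23. The lineage factor Tbx21 of Th1 cells (1.93) was called, Gata3 of Th2 cells (0.98) stayed just under the fold threshold with all 6 libraries above Tnaive, and Bcl6 of follicular helper cells (0.15) overlapped. Irf8 was higher by 2.13 and is expressed by B cells as well. Eomes and Id2 were lower, by -2.25 and -1.13. Against Teff, 8 of the 26 were called lower in Treg, among them Tbx21 (-1.56) and Maf (-1.74), and 1 was higher, against 4.04% and 2.84% of all tested genes.

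Of 22 tested homing receptors for chemokines and lipids, 10 were called higher and 2 lower, against 6.63% and 1.27% of all tested genes. Ccr6 rose from 5.39, 5.63 and 5.67 in Tnaive to 10.19, 9.95 and 10.13 in PAt and to 9.59, 9.35 and 9.45 in Arrested libraries (4.22, SE 0.0919, adjusted p = 2.5e-19). Cxcr3 was higher by 3.93, Ccr2 by 3.70 and the skin-homing receptors Ccr4 and Ccr8 by 3.68 and 2.40. Cxcr5, the follicle-homing receptor, was higher by 2.26. B cells express Ccr6 and Cxcr5, and both moved in the direction of the B-cell list. The part of B-cell transcripts in them was not tested. Against Teff, Ccr6 was called higher in Treg (1.51) and Cxcr5 lower (-2.57). Ccr7 (-1.03) and Gpr183, the oxysterol receptor (-1.06), were the 2 lower genes, and without Tnaive replicate 1 the count of lower genes in this list was 0. Among integrins and adhesion genes, 6 of 20 were higher and 2 lower, against 6.63% and 1.27% of all tested genes. The 6 include Cd44 (2.33), which follows from the gate of the naive cells and is not a result. Itgae, which encodes CD103 and binds E-cadherin, was at 7.39, 7.62 and 7.74 in Tnaive, at 12.73, 12.82 and 13.06 in PAt and at 11.78, 11.61 and 11.73 in Arrested libraries (4.70, SE 0.0696, adjusted p = 3.6e-22). Itgb1 was higher by 3.16, Itgb3 and Itgam were lower by -1.20 and -1.97, and Itgb7 and Itga4 were not called (0.15 and 0.46).

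Ligands that helper cells display or secrete divided. Of 16 tested genes of this kind 6 were called higher and 1 lower, against 6.63% and 1.27% of all tested genes. A further 6 of the list, among them Il5, Il13 and Il17a, had too low a mean to be tested. Lta (1.72), Tnfsf11, which encodes RANK ligand (2.09), and Ifng (2.08) were higher, and so was Il10, given above. Cd40lg, the ligand through which helper cells act on B cells, was at 12.22, 12.10 and 11.89 in Tnaive, at 9.97, 9.77 and 9.56 in PAt and at 10.38, 10.29 and 10.27 in Arrested libraries. All 6 were below the naive libraries (-2.03, SE 0.0787, adjusted p = 4.1e-15). In Teff, at 12.18 ± 0.13, it was close to the naive level, and the difference of the Treg libraries from Teff was -2.14 (adjusted p = 3.2e-15).

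T-cell receptor (TCR) signalling was read from 2 lists. Among 26 genes of the TCR complex and its proximal signalling, none was higher and 2 were lower, against 6.63% and 1.27% of all tested genes. The 2 include the adaptor Themis (-1.74, SE 0.0767), while Cd3e, Cd3d, Cd3g, Zap70 and Plcg1 lay within 0.3 of Tnaive. Of 34 early response genes, 9 were called higher and 1 lower, against the same shares, with a median of 0.53. The inhibitors of signalling Dusp4 (4.20), Rgs1 (3.24) and Spry1 (2.94) led the list, followed by Nr4a2 (1.88), Nr4a3 (1.28) and Egr2 (1.17). Nr4a1, which encodes Nur77, was higher by 1.08. Fos (0.33), Jun (-0.18), Egr1 (0.22), Cd69 (-0.20) and Myc (-0.05) were not called. Dusp10 was the lower gene (-1.44).

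Of 25 proliferation genes, 15 were called higher and none lower, against 6.63% and 1.27% of all tested genes, with a median of 1.49. Mki67, which encodes Ki67, was at 8.46, 8.50 and 8.49 in Tnaive, at 11.73, 11.76 and 11.46 in PAt and at 11.76, 11.53 and 11.61 in Arrested libraries (3.16, SE 0.0649, adjusted p = 1e-19). PAt and Arrested libraries overlapped, and all were far above Tnaive. The mitotic genes Ccnb2 (2.51), Kif11 (2.46), Aurkb (2.46) and Cdk1 (1.96) were higher, as was thymidine kinase Tk1 (2.86). Among the other 10, Mcm2 (-0.10), Mcm3 (0.22), Mcm5 (0.68) and Mcm6 (0.76) were not called, nor were Pcna (0.03), Tyms (0.24) and Ccne1 (-0.05). Teff, with Mki67 at 12.62 ± 0.06, was above the PAt and Arrested libraries, and the difference of -0.98 did not pass the fold threshold. The 2 populations with persistent Foxp3 transcription stood above Teff, at 14.51 and 14.54. Of 15 genes of G1 control, Cdkn2c (1.34) and E2f2 (1.20) were called higher, 13.3% against 6.63% of all tested genes.

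Of the survival and death genes 6 of 20 were called higher, 30% against 6.63% of all tested genes. Among the 6 were Pmaip1, which encodes the death activator Noxa (2.64), and the inhibitor Bcl2l1 (1.26). Also higher were Bcl2a1a, Bcl2a1b and Bcl2a1d, near-identical copies whose reads can be shared, so their values are uncertain. Bcl2 differed by 0.64 from Tnaive and was not called, and by 2.86 from Teff. Of 15 glycolysis genes, 3 (20%, against 6.63% of all tested genes) were called higher, Hk2 (2.08), Slc2a3 (1.09) and Slc16a3 (1.00), and Slc16a3 lost its call without PAt replicate 1, Arrested replicate 1 or 2, or Tnaive replicate 2 or 3 (0.92 to 0.99). None of the 20 respiratory chain genes was called, with a range from -0.19 to 0.20, and none of the 8 Gimap genes. Over all tested genes 6.63% were called higher and 1.27% lower. Interferon-stimulated genes had 3 of 24 called, Gbp2b (3.57), Gbp3 (2.61) and Mx1 (1.41), with a median of 0.17 and Isg15 (0.29), Irf7 (-0.14) and Ifit1 (-0.04) not called.

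The genes that fell furthest were mostly outside these lists. Pdlim4, which encodes a PDZ and LIM domain protein, lies on chromosome 11 from 54054928 to 54069014. It was at 11.06, 10.92 and 10.84 in Tnaive, at 5.61, 5.15 and 5.24 in PAt and at 5.95, 6.00 and 5.76 in Arrested libraries. The naive libraries lay about 5 units above the others (-5.32, SE 0.126, adjusted p = 1e-18). Ggt5, a gamma-glutamyltransferase, was lower by -4.80 (SE 0.139) and Lypd6b by -4.11 (SE 0.145). Slc16a5, a monocarboxylate transporter family gene, and App, which encodes the amyloid precursor protein, were lower by -3.50 and -3.46. Tmie, Hs3st3b1 and Nacc2 followed at -3.19, -3.18 and -3.15. Each of the 12 lowest genes had all 6 Treg libraries below all 3 naive libraries, which the rule that chose them required. Against Teff, 10 of these 12 were also called lower, with the exceptions of Adamts14 (-0.93) and Tmie (-0.78), against 4.04% of all tested genes. The 12 were chosen in the same 6 Treg libraries, so this count is a description.

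The region before the start of 20 of 28 genes looked up was present in a RefSeq table of promoters on GRCm38.p6, and the 250 bases before each start were searched for 2 motifs on both strands. The forkhead motif was TGTTTAC or its complement GTAAACA, and the STAT motif was TTCNNNGAA, which reads the same on both strands. Among the genes with an entry, Serpina3g of the 12 highest held the STAT motif and Dapl1 of the 12 lowest held the forkhead motif. Il7r, of the naive list, held the STAT motif, and so did 1 of 2 entries of Foxp3, at -139, which lies inside the annotated gene and is not printed. These 3 are shown because they are the matches among the genes that moved furthest in either direction and that of Il7r. Il7r is a cytokine receptor gene called lower that was looked up by choice. Capitals mark the match.

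Serpina3g, chr12:104235897-104236146, plus strand: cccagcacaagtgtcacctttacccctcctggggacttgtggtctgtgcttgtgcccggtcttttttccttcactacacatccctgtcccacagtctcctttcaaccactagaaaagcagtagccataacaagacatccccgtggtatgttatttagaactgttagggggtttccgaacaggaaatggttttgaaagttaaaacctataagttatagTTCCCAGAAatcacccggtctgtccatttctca
Dapl1, chr2:59484403-59484652, plus strand: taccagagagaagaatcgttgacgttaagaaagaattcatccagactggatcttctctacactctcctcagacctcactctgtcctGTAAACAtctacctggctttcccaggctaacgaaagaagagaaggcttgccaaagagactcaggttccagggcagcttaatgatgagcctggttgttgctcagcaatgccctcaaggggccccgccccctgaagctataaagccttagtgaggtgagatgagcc
Il7r, chr15:9529877-9530126, minus strand: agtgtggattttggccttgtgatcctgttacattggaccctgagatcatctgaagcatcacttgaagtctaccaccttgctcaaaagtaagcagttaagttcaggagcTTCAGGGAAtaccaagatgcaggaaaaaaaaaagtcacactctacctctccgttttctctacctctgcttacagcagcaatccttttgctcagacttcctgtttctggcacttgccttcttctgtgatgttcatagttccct

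Counted from the RefSeq start, which ends each window, the match begins at -33 in Serpina3g, at -164 in Dapl1 and at -142 in Il7r. The GENCODE gene starts at the same base for Dapl1 but at 104236245 for Serpina3g, downstream of its window, and at 9530176 for Il7r, whose window therefore lies inside the GENCODE gene. The STAT motif was present before 48 of 657 genes called higher (7.31%) and 3 of 122 called lower (2.46%), against 623 of 9938 tested genes (6.27%) and 7.18% of all promoters of the table. The forkhead motif was present before 18 genes called higher (2.74%) and 2 called lower (1.64%), against 2.12% of tested genes and 3.09% of all promoters. These shares are a description, and a match is neither a site nor a cause.

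PAt and Arrested cells were then compared with each other, which uses no Tnaive library. Against Tnaive, 1160 genes (8.79%) were called for PAt and 932 (7.07%) for Arrested cells, and these comparisons share the 3 naive libraries. Between Arrested and PAt, 16 genes were called (0.121% of those tested), 6 higher (0.0455%) and 10 lower (0.0758%) in Arrested cells, and 665 genes (5.04%) passed the adjusted p alone. The mean distance between them was 29.3, against 23.2 within PAt and 27.3 within Arrested.

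The genes lower in Arrested than in PAt cells were genes that were higher in both than in Tnaive. Gbp2b, a guanylate-binding protein, was at 4.78, 4.79 and 4.85 in Tnaive, at 8.97, 9.11 and 9.03 in PAt and at 7.51, 7.88 and 7.79 in Arrested libraries. The Arrested libraries lay between the other groups, and their difference from PAt was -1.31 (SE 0.114, adjusted p = 6.4e-07). Itgae, given above, was lower in Arrested cells by -1.16 (SE 0.0804, adjusted p = 2.7e-08) and Il1rl1 by -1.06 (SE 0.121, adjusted p = 1.6e-05). Fgl2, which encodes a secreted suppressive protein, was lower by -1.07. Dnah7a (-1.18), Sdc4 (-1.08), Dscam (-1.08), Dgat2 (-1.07), Stra6 (-1.06) and Fsd1l (-1.03) made up the 10, and Dnah7a has close relatives that can share its reads. Lrrc32 (-0.52), Il2ra (-0.70), Ikzf2 (-0.56) and Socs2 (-0.94) passed the adjusted p in the same direction without passing the fold threshold, whereas Foxp3 (-0.10, adjusted p = 0.453) and Mki67 (-0.02, adjusted p = 0.942) did not.

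Among the genes higher in Arrested cells, 3 were genes that were lower in both populations than in Tnaive. Slc16a5 was at 11.05, 11.07 and 10.99 in Tnaive, at 6.48, 6.81 and 7.18 in PAt and at 8.08, 8.30 and 8.39 in Arrested libraries. The Arrested libraries lay between the others, and the difference of Arrested from PAt cells was 1.43 (SE 0.135, adjusted p = 1.5e-06). Epas1, a hypoxia-inducible factor, was at 9.29 in Tnaive, 6.47 in PAt and 7.55 in Arrested cells, and Vipr1, the receptor of vasoactive intestinal peptide, at 13.04, 9.46 and 10.49. Tox2, an HMG box factor, was higher in both than in Tnaive and more so in Arrested cells, at 5.95, 7.99 and 9.10. Smtn was at 6.85 in Tnaive, 7.15 in PAt and 8.34 in Arrested cells and was called against Tnaive for Arrested alone. Ly6c1, which has a close relative that can share its reads, was at 11.03 in Tnaive, 10.03 in PAt and 11.13 in Arrested cells, and was called against Tnaive for neither. In Teff, Smtn was at 13.10 and Tox2 at 11.33, above both PAt and Arrested cells. Slc16a5 (9.53), Epas1 (9.06) and Vipr1 (11.67) were also higher in Teff than in either, and Ly6c1 (8.57) was lower. The left-hand plot of these 16 genes shows that PAt and Arrested libraries did not overlap for any of them. The genes were called for a difference over 1, so this adds little to the call.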

How the data were processed

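RNA of sorted CD4+ T cells was sequenced by the authors after stranded mRNA library preparation, with paired-end reads aligned to mm10. The submitters' processing notes name CASAVA 1.8.2, FastQC 0.11.2, TopHat2 2.0.9 and DESeq2. The counting step is not given in the sources used here. The deposited table holds log2 normalised counts (15402 genes, 18 libraries, from -0.02 to 18.89), used as the authors made them with no further pseudocount. The transform is not named in the sources used here. With no whole numbers, no pile of values at 0 and little spread at low levels, the table looks like a regularised log. Counts were not analysed here, so depth per library and counting error are unknown, and precision rests on the spread between 3 libraries per population.

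The 13190 genes with a mean of at least 3 were fitted with limma 3.58.1 in R 4.3.3: 1 mean per population over all 18 libraries (12 residual degrees of freedom), variances moderated along a trend, Benjamini-Hochberg adjustment. Calls needed both an adjusted p under 0.05 and a log2 fold change beyond 1 in either direction. On simulated data with independent normal errors and 200 of 13190 genes changed by 2, the model recovered 200 with 0 false calls. A change of 2 lies far above the threshold of 1 for a median SE of 0.0782. The simulation therefore checks the code only, and gives no rate for changes nearer 1 or for pools shared between populations. Marker sums are log2 of summed linear values. Coordinates came from GENCODE vM21 and promoters from RefSeq. Python 3.11 and matplotlib 3.10.9 drew the figures.

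The members and the 19 gene lists (390 genes) were chosen with earlier results of these data known. Named genes were the checks of the sort, the 12 highest and 12 lowest called genes without overlap, the 4 largest changes of each list, and the 5 highest and 5 lowest called genes of Arrested against PAt. Other genes were named after their values were seen, as were list members given as exceptions and the gene families of the closing part. Symbols that had become dates (22 rows) were not named, and some genes of the lists, although counted, are not reported here.

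Replicates are pools of mice. The design text has all populations sorted from the same animals, and neither source states outright that a replicate number marks 1 pool. Deviations from the population means correlated with a median of 0.167 over 9 same-number pairs (from -0.074 to 0.310, 6 over 0.1) and of -0.062 over 18 pairs with different numbers. The alternatives covered the filter, the libraries in the fit, the call, the variance trend, the scaling, a replicate block, and each library left out.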

Additional observations from a re-analysis of the deposited data

Results flagged for a closer look

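Genes whose difference from Tnaive itself differed between Arrested and PAt cells were tested by the contrast of Arrested minus PAt in the limma fit, which carries no Tnaive library. Among named genes, 11 passed by the call used throughout. Lower in Arrested cells were Gbp2b (-1.31), Dnah7a (-1.18), Itgae (-1.16), Sdc4 (-1.08), Dscam (-1.08) and Il1rl1 (-1.06). Higher in Arrested cells were Slc16a5 (1.43), Smtn (1.19), Tox2 (1.11), Ly6c1 (1.10) and Epas1 (1.08). For each of the 6 genes lower in Arrested cells, the Arrested mean lay between the Tnaive and PAt means, as for Dscam at 5.22, 7.92 and 6.84. The B-cell marker sum was lower in Arrested (12.1 to 12.3) than in PAt libraries (12.4 to 12.7), and its part in these differences was not tested. Tox2 and Epas1 lost their call without PAt replicate 2 (0.97 and 0.99) and Dscam without Arrested replicate 2 (-0.99).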

How the results depend on the processing

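Of 2671 values of the single genes reported here under other settings, 2612 kept their direction and their side of the threshold, 31 lost a call, 28 gained one and none turned in sign. The settings of the call, the filter, the variance trend, the 9-library fit and the replicate block leave the fold changes as they were. No sign could turn under them, and many of these genes were chosen for large changes, so these numbers are a description. By the adjusted p alone, 6684 genes passed for PAt and Arrested against Tnaive (3549 higher and 3135 lower), 6168 for PAt, 5746 for Arrested and 665 for Arrested against PAt. Tested against a log2 fold change of 1 (limma treat), 706 passed, 110 of them lower, with 758 for PAt, 590 for Arrested and 0 for Arrested against PAt, where the main call gave 16. Leaving out 1 library at a time gave 1027 to 1064 genes, 859 to 898 higher and 165 to 171 lower, 1146 to 1164 for PAt, 902 to 979 for Arrested and 12 to 26 for Arrested against PAt, with the 26 without Arrested replicate 3. Median centring moved the median of all genes by -0.08 (796 higher, 188 lower), and quantile normalisation by -0.07 (675 higher, 234 lower, 74.3% higher in place of 83.9%). With the replicate block the counts were 1042 for both together, 1162 for PAt, 933 for Arrested and 17 for Arrested against PAt. The filter, the trend and the 9-library fit gave 1018 to 1041 genes. Causes were not tested. Depth is unknown, so low genes such as Il2 cannot be read as absent.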

Other observations

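Gene families outside the lists, chosen after their values were seen, moved unevenly; over all tested genes 6.63% were called higher and 1.27% lower. Of 7 tested S100a genes, 4 were called higher in PAt and Arrested cells than in Tnaive (calcium-binding proteins): S100a4 by 3.99, S100a6 by 3.23, S100a10 by 1.23 and S100a11 by 1.21, and against Teff S100a4, S100a6 and S100a11 were called lower (-1.55, -2.07 and -1.63) and S100a10 was not (-0.46). Of 12 regulators of G-protein signalling, Rgs16 (4.77), Rgs9 (4.51) and Rgs1 (3.24) were higher and Rgs11 (-2.24) was lower. Rgs9 was at 5.10 in Tnaive, 9.61 over PAt and Arrested libraries and 5.61 in Teff, and its difference from Teff was 4.00 (limma, adjusted p = 5.1e-17). Klrg1, a lectin-like inhibitory receptor, showed the same order, at 4.79 in Tnaive, 7.65 over PAt and Arrested libraries and 4.84 in Teff, while Klrd1, of the same family, was lower by -1.78. Of 16 myosin genes 4 were higher, among them Myo3b (3.56) and Myo1c (2.00), and of 18 TNF receptor family genes 6 were higher and none lower. The family also holds Tnfrsf13c, the BAFF receptor of B cells (1.27), which moved with the B-cell markers.

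Ribosomal protein genes were not called in either direction. Of 77 tested, none passed, against 6.63% higher and 1.27% lower over all tested genes. Their median was -0.27 against -0.01 over all tested genes, with a range from -0.56 to 0.76.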
